A study of Mus musculus with 6 samples.

Results

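Genes that fold, import and dispose of proteins in the endoplasmic reticulum (ER) were examined in pancreatic islets of mice with a targeted Ppard gene. The set held 37 genes, chosen by symbol for their role. It comprised 11 chaperones and their helpers, 6 disulfide isomerases, 7 subunits of the translocon, 10 genes of ER-associated degradation and 3 stress sensors or effectors. Of these, 36 were measured. Sec61g, a small translocon subunit, had no probe set named for it alone. Each gene was read from the probe set with the highest mean over all arrays, as was done for the 18193 genes of the whole series.

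Mice labelled knockout carried 2 floxed alleles of Ppard, which encodes the fatty acid receptor PPARβ, and a Cre transgene under the Pdx1 promoter (Pdx1Cre;PPARbetafl/fl). The control littermates carried the same floxed alleles without Cre (PPARbetafl/fl). Both groups were 8 weeks old, of mixed SV 129/C57BL/6 background, with 3 arrays each from different animals. The Pdx1 promoter drives Cre throughout the developing pancreas, and Cre-positive mice with intact Ppard were not analysed here, so the transgene and the deletion cannot be told apart. The labels call the material beta-cells, but the protocol describes isolated islets, which also contain other endocrine, vascular and immune cells. In bulk RNA of this kind, fewer cells of a type and less RNA per cell cannot be told apart. RNA was measured on 1-colour Affymetrix arrays, and each value is the log2 expression of a probe set.

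Proteins bound for secretion enter the ER through the Sec61 channel. There, chaperones such as BiP hold the growing chains, lectins handle their sugars and disulfide isomerases form and shuffle their cysteine bonds. Chains that fail to fold are marked, moved back to the cytosol and degraded. When unfolded protein accumulates, the sensors IRE1 (gene Ern1) and ATF6 raise the output of these same genes, in the case of IRE1 by splicing the mRNA of the transcription factor XBP1. Pancreatic beta cells make proinsulin, a protein with internal disulfide bonds, in very large amounts and depend on this machinery.

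Median log2 values lay between 5.39 and 5.49, and arrays correlated at r of 0.991 to 0.993 among those labelled knockout, 0.981 to 0.991 among controls and 0.978 to 0.987 across groups. The beta cell hormone gene Ins2 averaged 13.80 ± 0.08 in the arrays labelled knockout and 13.85 ± 0.02 in controls (SD, n = 3 each), near the top of the range. The targeted gene was not lower: Ppard stood at 8.01, 8.20 and 7.70 in the arrays labelled knockout, against 7.75, 7.56 and 7.12 in controls (adjusted p = 0.377, limma). A second, dimmer Ppard probe set read 5.97, 5.84 and 5.73 in the arrays labelled knockout, against 5.57, 5.47 and 5.47 in controls, with no overlap (0.35 ± 0.11, adjusted p = 0.255). The labels give no deleted exon, so both probe sets may lie outside it and the genotype rests on the labels. Cell composition differed between arrays. Acinar markers (20 of 25 measured) averaged 8.96, 5.94 and 6.11 in knockout 1 to 3, against 7.15, 11.41 and 11.34 in controls 1 to 3, so controls 2 and 3 carried most exocrine RNA.

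All 36 measured genes had a higher mean in the arrays labelled knockout, by a median of 0.33 on the log2 scale (1.26-fold), but 2 changed sign under some alternatives. Os9 turned to -0.01 after quantile normalization again, -0.01 without control 2, -0.003 without control 3, -0.10 with the acinar marker mean as a covariate and -0.14 without controls 2 and 3. Ssr4 turned to -0.18 with the mean of its probe sets. Over all genes the median difference was 0.002 and 50.4% had a higher mean. Among the 2004 genes with a mean log2 value of at least 10 the median difference was 0.03 and 57.7% were higher. In 33 of the 36, every array labelled knockout lay above every control, which held for 12.1% of all genes. Of the 27 members with a mean log2 value of at least 10 it held for 25, against 23.5% of all genes that bright. The 3 genes whose groups overlapped were Canx, Sec61a1 and Os9. At an unadjusted p under 0.05, 26 members were higher and 0 lower, against 8.37% of all genes higher. Of the 27 bright members 18 were higher at that p, against 11.8% of bright genes. With p adjusted over all 45037 probe sets, 1 of 36 rose (Edem3) and 0 fell with limma, against 0.852% and 0.247% of all genes. The count of members called was sensitive to the variance model: letting the prior variance follow intensity, with robust estimation, gave 13, against 2.01% of all genes called higher in that fit.

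**Figure D1:**
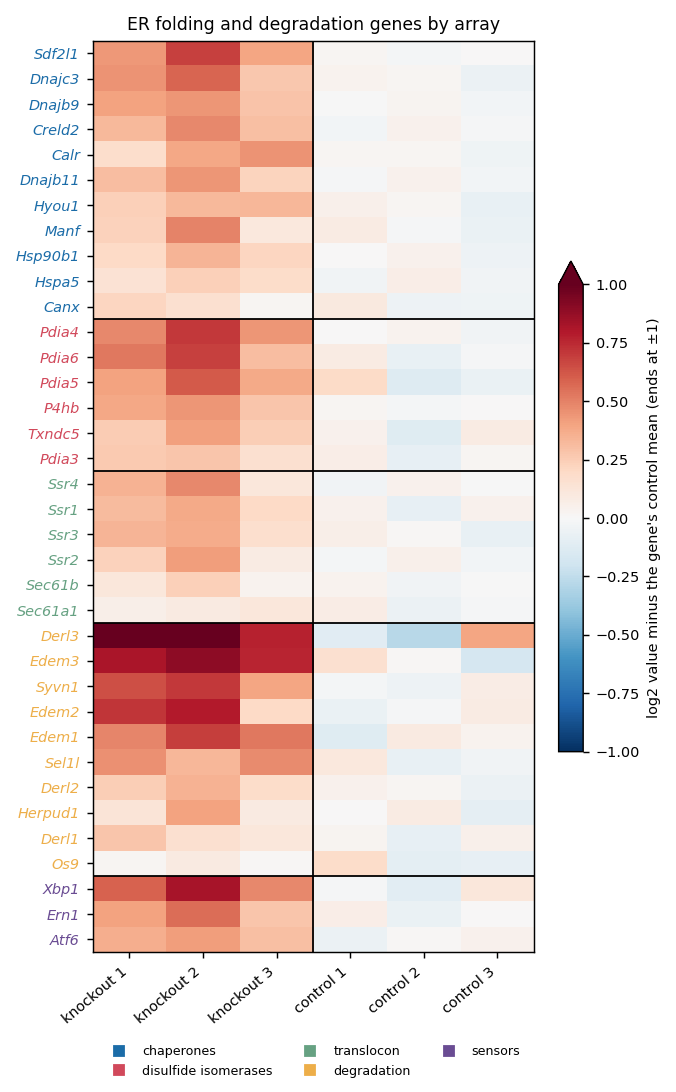
Heat map of the 36 measured genes (rows, grouped and coloured by role) over the 6 arrays (columns, arrays labelled knockout left of controls), as the log2 value minus the gene's control mean. The colour scale ends at ±1, and the arrays labelled knockout are higher in nearly every row, with array 2 usually the highest.

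**Figure D2:**
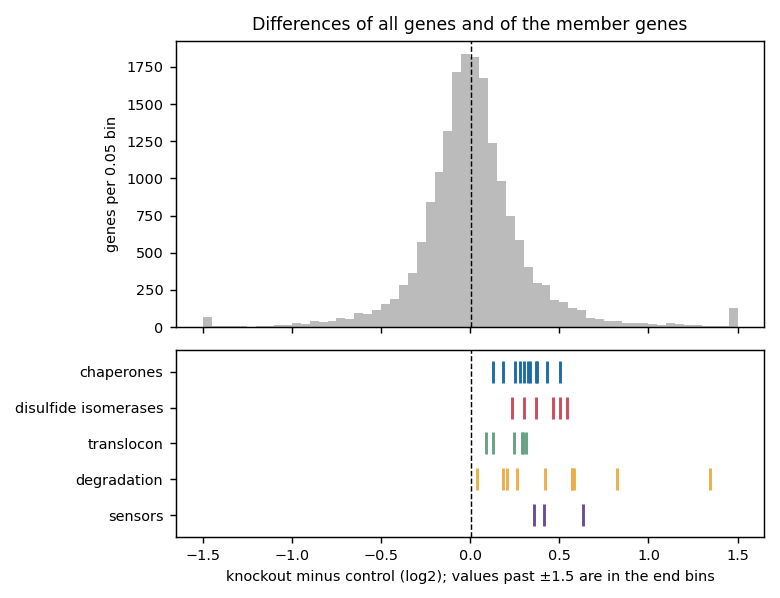
Top, the differences of all 18193 genes (arrays labelled knockout minus control, log2) as a histogram, with the median of 0.002 dashed. Below, 1 tick per member gene by role, of which all lie to the right of that median (Os9, at 0.04 here, turned to -0.01 after quantile normalization again).

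The animals labelled knockout also differed among themselves in an ordered way. The array labelled knockout 2 stood highest of its group in 30 of 36 members, and knockout 3 was the lowest in 29. Over all genes knockout 2 was highest in 29.8% and knockout 3 lowest in 31.9%. Among genes with a mean log2 value of at least 10 these shares were 33.5% and 42%. The mean over the members was 11.10, 11.21 and 11.00 in knockout 1 to 3, against 10.75, 10.70 and 10.72 in controls 1 to 3. The spread was thus wider among the arrays labelled knockout (SD 0.11) than among controls (SD 0.02). The acinar marker means of controls 1 to 3 were 7.15, 11.41 and 11.34, and their part in the member values was not tested.

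**Figure D3:**
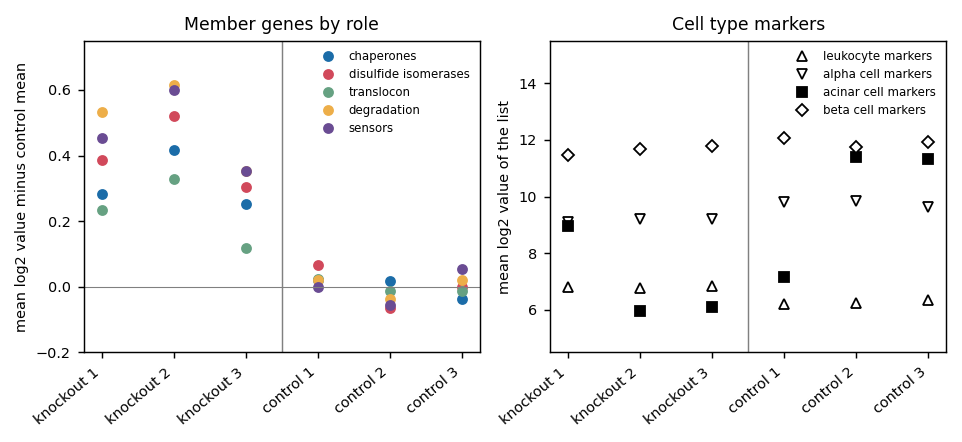
Left, the mean log2 value of each role minus its control mean, by array. Right, the mean log2 value of 4 cell type marker lists, by array, with arrays labelled knockout left of controls. The acinar means of controls 2 and 3 stand at 11.41 and 11.34. The member means of controls 1 to 3 are 10.75, 10.70 and 10.72.

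Chaperones and their helpers had a median difference of 0.32 over 11 genes, all with higher means, 0 of them called. Sdf2l1, a partner of the BiP system that keeps clients soluble, had log2 values of 10.08, 10.33 and 10.05 in the arrays labelled knockout, against 9.66, 9.63 and 9.65 in controls. The difference was 0.50 ± 0.12 (SE, adjusted p = 0.131), with a control spread far below the gap. For Dnajc3, a co-chaperone of BiP, the arrays labelled knockout read 12.15, 12.29 and 11.97 and the controls 11.74, 11.72 and 11.65. Its difference of 0.43 ± 0.12 had an adjusted p of 0.194, and the groups did not overlap. All 5 probe sets of Dnajc3 were higher, by 0.39 to 0.56.

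Dnajb9, which encodes the BiP co-chaperone ERdj4, stood at 12.03, 12.07 and 11.91 in the arrays labelled knockout and at 11.62, 11.66 and 11.61 in controls (difference 0.38 ± 0.10, adjusted p = 0.190). Creld2, an ER protein known for its induction by ER stress, gave 12.14, 12.29 and 12.11 in the arrays labelled knockout and 11.78, 11.85 and 11.80 in controls (0.37 ± 0.10, adjusted p = 0.207). In both genes the lowest array labelled knockout exceeded the highest control. The lectin chaperone gene Calr differed by 0.34, Dnajb11 (ERdj3) by 0.32, the BiP exchange factor gene Hyou1 by 0.30, the secreted ER protein gene Manf by 0.28 and Hsp90b1 (GRP94) by 0.25. The brightest Calr probe set is of a class that can also bind other transcripts, as is another that differed by 0.39. The remaining Calr probe set, of another class, differed by 0.52.

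Hspa5 encodes BiP itself. It had log2 values of 13.08, 13.17 and 13.12 in the arrays labelled knockout, against 12.90, 13.00 and 12.90 in controls. The groups did not overlap, and the difference was 0.19 ± 0.10 with a 95% interval of -0.05 to 0.42 (adjusted p = 0.497). A second probe set at slightly lower signal differed by 0.23, and a dim one by 0.05 with overlap between groups. The mean of all 3 Hspa5 probe sets differed by 0.16. Canx, the membrane-bound lectin chaperone, differed by 0.13 ± 0.11 (adjusted p = 0.679), with knockout 3 at 11.11 below control 1 at 11.20. Its dimmer probe sets differed by 0.16 and 0.38, the second with no overlap (adjusted p = 0.306), and the mean of all 3 by 0.22.

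Many genes of this kind carry the ER stress response element (ERSE), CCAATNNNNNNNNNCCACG, which is bound by NF-Y together with ATF6 or XBP1. The promoter windows of RefSeq (build GRCm38.p6, 250 bases before to 50 after the start) were searched for it on both strands. Of 31 members with a window, 9 (29.0%) held an ERSE, against 37 of 27025 genes (0.137%), and its 5-base ends CCAAT and CCACG are counted within it. The related ERSE-II, ATTGGNCCACG, was in 2 members (Dnajb11 and Herpud1) and 0.0444% of all genes, and the core TGACGTGG in Txndc5 and 0.714%. Of 68 other genes of the pathway with a window, 3 (4.41%) held that core, against 1 of 31 members (3.23%). An ERSE was in 1 of the 68 (1.47%), and an ERSE-II also in 1. The stretches below show 8 of the ERSE genes, chosen to span small and large differences, and the ERSE-II of Herpud1. They run in the gene's own direction, with the element in capitals (read as CGTGG to ATTGG where it lies on the opposite strand).
Hspa5 (chr2:34771940-34772089, plus strand): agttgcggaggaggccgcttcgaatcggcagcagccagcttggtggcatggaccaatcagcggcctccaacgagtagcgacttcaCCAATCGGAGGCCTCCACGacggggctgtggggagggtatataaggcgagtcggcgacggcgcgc
Hsp90b1 (chr10:86705508-86705576, minus strand): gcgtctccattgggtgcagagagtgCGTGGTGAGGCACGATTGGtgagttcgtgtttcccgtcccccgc
Canx (chr11:50325775-50325843, minus strand): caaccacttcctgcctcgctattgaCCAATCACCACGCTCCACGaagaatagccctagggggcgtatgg
Dnajc3 (chr14:118937802-118937870, plus strand): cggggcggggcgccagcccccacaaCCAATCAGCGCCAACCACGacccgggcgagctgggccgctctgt
Creld2 (chr15:88819495-88819563, plus strand): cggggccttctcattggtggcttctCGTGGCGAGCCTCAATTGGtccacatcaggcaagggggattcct
Pdia6 (chr12:17266466-17266534, plus strand): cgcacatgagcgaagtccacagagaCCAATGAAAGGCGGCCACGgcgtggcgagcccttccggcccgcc
Derl3 (chr10:75893217-75893285, plus strand): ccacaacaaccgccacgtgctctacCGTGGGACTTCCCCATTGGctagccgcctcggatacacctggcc
Syvn1 (chr19:6046507-6046575, plus strand): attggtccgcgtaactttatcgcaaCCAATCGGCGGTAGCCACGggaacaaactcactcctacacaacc
Herpud1 (chr8:94386352-94386412, plus strand): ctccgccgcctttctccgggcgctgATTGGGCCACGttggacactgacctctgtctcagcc
The ERSE of Hspa5 began 65 bases upstream of the start and that of Syvn1 44 bases upstream.

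The 9 genes with an ERSE had a median difference of 0.37 (0.13 for Canx to 1.34 for Derl3), and the 21 measured members whose windows held none had a median of 0.37 (0.04 for Os9 to 0.82 for Edem3), and the difference between these groups of genes was not tested. That set without an ERSE included Edem3 and Xbp1, for which no match says only that these letters are not in the window. Outside the set, 11 other measured genes held an ERSE. Their median difference was -0.02, 4 of 11 were higher and 0 were called with limma. A match is a description of the sequence, and binding was not measured.

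Disulfide isomerases were higher in all 6 genes, with a median of 0.42, no overlap between groups in any, and 0 called. Pdia4, an isomerase with several thioredoxin-like domains, had log2 values of 10.65, 10.89 and 10.62 in the arrays labelled knockout, against 10.18, 10.21 and 10.14 in controls. The difference was 0.54 ± 0.11 (1.46-fold, adjusted p = 0.104), and the control SD was 0.03. Pdia6, an isomerase that also acts on the IRE1 sensor, read 10.08, 10.24 and 9.86 in the arrays labelled knockout and 9.63, 9.48 and 9.54 in controls (0.50 ± 0.13, adjusted p = 0.170).

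Pdia5 stood at 8.97, 9.18 and 8.95 in the arrays labelled knockout, against 8.76, 8.44 and 8.50 in controls (0.47 ± 0.13, adjusted p = 0.208). P4hb, the classical protein disulfide isomerase, stood at 12.22, 12.28 and 12.11 in the arrays labelled knockout, against 11.85, 11.82 and 11.83 in controls (0.37 ± 0.10, adjusted p = 0.194). Knockout 2 was the highest array in all 4 of these genes. Txndc5 differed by 0.30 ± 0.11 and Pdia3, which works with the lectin chaperones on glycoproteins, by 0.23 ± 0.10.

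Translocon genes had the smallest median of the roles, 0.27 over 6 measured genes, with 0 called. The 4 subunits of the TRAP complex, which sits beside the channel and helps signal sequences insert, differed by 0.25 to 0.31. Ssr1 gave 11.72, 11.78 and 11.60 in the arrays labelled knockout and 11.44, 11.32 and 11.45 in controls (0.30 ± 0.11, adjusted p = 0.315). Ssr3 gave 12.25, 12.28 and 12.07 in the arrays labelled knockout and 11.96, 11.92 and 11.84 in controls (0.29 ± 0.11, adjusted p = 0.334). Every array labelled knockout exceeded every control in both, as it did for Ssr2 and Ssr4.

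Ssr4 read 11.19, 11.33 and 10.96 in the arrays labelled knockout, against 10.81, 10.89 and 10.84 in controls (0.31 ± 0.12, adjusted p = 0.358). Its 2 dimmer probe sets ran the other way, by -0.39 and -0.46, and the mean of its 3 probe sets differed by -0.18. Ssr2 read 10.96, 11.15 and 10.82 in the arrays labelled knockout, against 10.71, 10.78 and 10.70 in controls (0.25 ± 0.12, adjusted p = 0.457). In the channel itself, the pore-forming subunit gene Sec61a1 differed by 0.09 ± 0.10 (95% interval -0.15 to 0.32) and Sec61b by 0.13 ± 0.10. The 5 dimmer Sec61a1 probe sets differed by 0.07 to 0.44, each with overlap between groups, and the mean of all 6 by 0.20. Sec61a1 averaged 12.88 ± 0.03 in the arrays labelled knockout and 12.79 ± 0.07 in controls, with control 1 at 12.87 above knockout 1 at 12.85.

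Degradation genes had a median of 0.50 over 10 genes and included the single call. With the mean of all probe sets of each gene that median was 0.29. Edem3, a mannosidase-like protein that trims glycans and so marks misfolded glycoproteins for disposal, rose by 0.82 ± 0.12 (1.77-fold, adjusted p = 0.0370). Its log2 values were 9.80, 9.88 and 9.75 in the arrays labelled knockout, against 9.15, 8.99 and 8.82 in controls. The highest control was thus well under the lowest array labelled knockout. A second, dim Edem3 probe set (3.66 ± 0.48 in the arrays labelled knockout and 4.13 ± 0.39 in controls) differed by -0.47 ± 0.29. The call was lost without any single array other than control 1 (adjusted p of 0.112 to 0.163), with the replicate number as a block (0.0853), with the mean of both probe sets (0.18, adjusted p = 0.675), with the acinar marker mean as a covariate (0.71, adjusted p = 0.246) and without controls 2 and 3 (0.66, adjusted p = 0.209).

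Edem1, of the same family, had log2 values of 11.58, 11.78 and 11.62 in the arrays labelled knockout and 10.97, 11.18 and 11.12 in controls (0.57 ± 0.12, adjusted p = 0.0943). Its second probe set differed by 0.92 ± 0.16 (adjusted p = 0.0609). Edem2 differed by 0.57 ± 0.17 (adjusted p = 0.235), with knockout 3 at 9.62 much closer to the controls (9.35 to 9.50) than knockout 1 and 2 at 10.13 and 10.21. Its dim second probe set differed by -0.24.

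Syvn1, the ubiquitin ligase HRD1 at the centre of the degradation complex, had log2 values of 9.80, 9.86 and 9.55 in the arrays labelled knockout, against 9.13, 9.10 and 9.23 in controls. Its difference was 0.58 ± 0.12 (adjusted p = 0.105). Sel1l, the adaptor that holds HRD1 in place, differed by 0.42 ± 0.11 (adjusted p = 0.170) and its 5 probe sets by 0.08 to 0.45. The groups did not overlap for either gene on the brightest probe set.

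Derl3, a derlin that helps move substrates out of the ER, showed the largest difference of the 36, 1.34 ± 0.29 (2.54-fold, 95% interval 1.59 to 4.06 as a fold). It read 6.87, 7.08 and 6.12 in the arrays labelled knockout, against 5.23, 5.07 and 5.74 in controls, and did not pass (adjusted p = 0.107). Knockout 3 at 6.12 and control 3 at 5.74 were the closest arrays of the 2 groups. The relatives Derl1 and Derl2 differed by 0.18 and 0.26. The membrane protein gene Herpud1 differed by 0.21 ± 0.13 and the lectin gene Os9 by 0.04 ± 0.12 (95% interval -0.24 to 0.32). Os9 averaged 9.76 ± 0.05 in the arrays labelled knockout and 9.72 ± 0.16 in controls, and control 1 at 9.90 was its highest array.

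**Figure D4:**
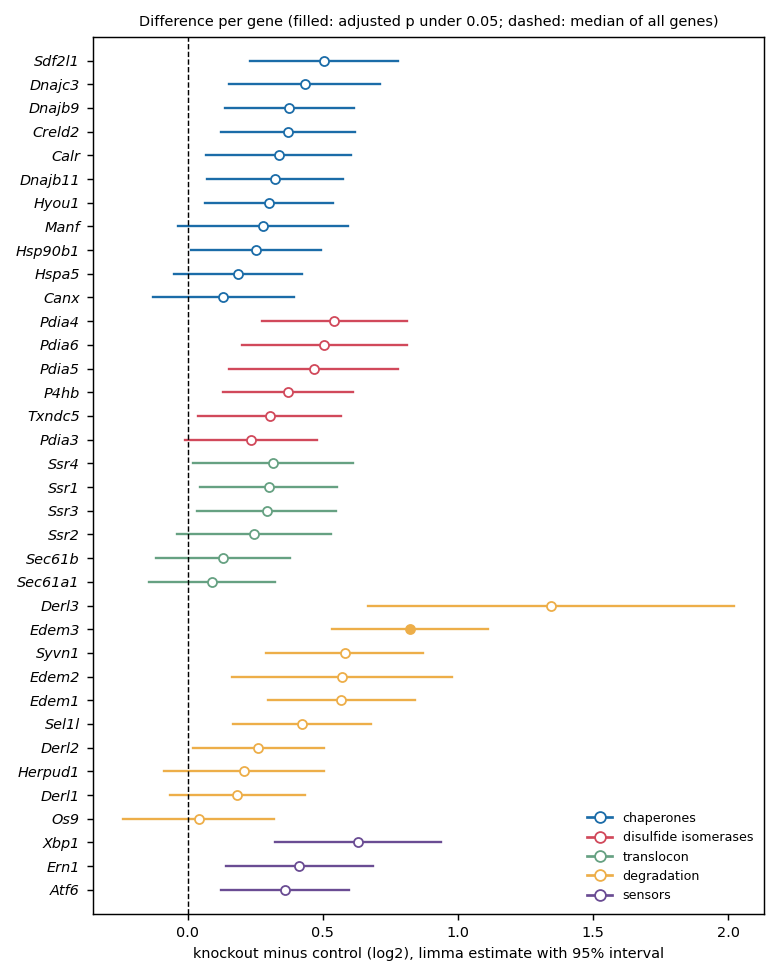
Difference per gene (arrays labelled knockout minus control, log2) with its 95% interval from limma, by role. Edem3 is the only filled point, the single gene with an adjusted p under 0.05; Derl3 has the largest difference and the widest interval.

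The sensors and their effector were higher in all 3 genes, by a median of 0.41, with 0 called on the brightest probe set. Xbp1, the transcription factor made active by IRE1, had log2 values of 11.08, 11.31 and 10.97 in the arrays labelled knockout, against 10.48, 10.38 and 10.60 in controls. The difference was 0.63 ± 0.13 (1.55-fold, adjusted p = 0.0985). Its other 3 probe sets differed by 0.70, 0.75 and 0.78 (adjusted p of 0.0606 to 0.0944). The mean of the 4 passed at adjusted p = 0.0332 (limma), in a fit adjusted over 18193 genes, of which 289 were called higher. Splicing of Xbp1 was not measured.

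Ern1, which encodes the sensor IRE1, stood at 10.55, 10.70 and 10.42 in the arrays labelled knockout and at 10.21, 10.07 and 10.15 in controls (0.41 ± 0.12, adjusted p = 0.203). Its second brightest probe set differed by 0.46 with no overlap. Its dim probe sets differed by 0.17, 0.14 and 0.33, each with overlap between groups. The mean of all 5 differed by 0.30 (adjusted p = 0.300 over the 18193 genes, limma). Atf6, whose product is cut in the Golgi to release a transcription factor, read 10.28, 10.33 and 10.21 in the arrays labelled knockout, against 9.86, 9.92 and 9.96 in controls (0.36 ± 0.10, adjusted p = 0.20). A second Atf6 probe set rose by 0.73 ± 0.11 (adjusted p = 0.0394), at 9.62, 9.51 and 9.38 in the arrays labelled knockout, against 8.84, 8.73 and 8.75 in controls. Groups did not overlap for any of the 3 genes on the brightest probe set. Over all 87 probe sets of the 36 genes, 83 were higher and 2 were called (Edem3 and Atf6), against 0.713% of all probe sets called higher. The 4 lower ones belonged to Ssr4, Edem2 and Edem3 and all had mean log2 values under 8.

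**Figure D5:**
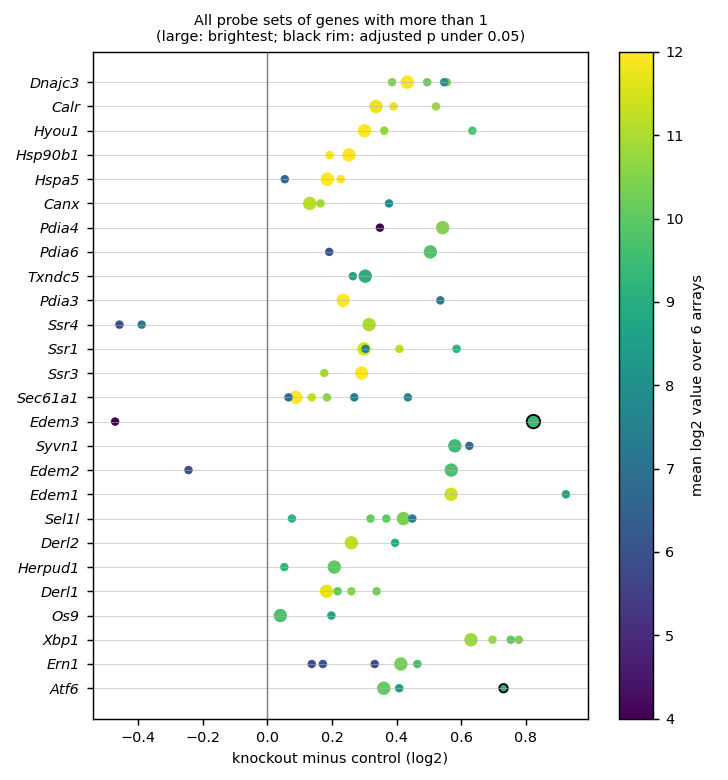
Differences (arrays labelled knockout minus control, log2) of every probe set of the 26 genes with more than 1, coloured by mean log2 value. Large points are the brightest probe sets; the 4 points left of 0 are dim probe sets of Ssr4, Edem2 and Edem3.

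Other genes of the same pathway, 86 measured in 5 lists, had a median difference of 0.19. Of these, 75 of 86 had higher means, against 50.4% of all genes. In 34 every array labelled knockout lay above every control, against 12.1% of all genes. With limma 1 of 86 rose and 0 fell, against 0.852% and 0.247% of all genes. The gene that rose was Ero1a, the oxidase that recharges disulfide isomerases, at 11.02, 10.89 and 10.93 in the arrays labelled knockout, against 10.23, 10.37 and 10.24 in controls (0.67 ± 0.10, adjusted p = 0.0435). That call was lost without any single array (adjusted p of 0.0610 to 0.192), after quantile normalization again (0.0508), with the replicate block (0.126), with the acinar covariate (0.170) and without controls 2 and 3 (0.187). Ero1b, its counterpart enriched in the pancreas, differed by 0.18 ± 0.13 (adjusted p = 0.612).

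Other oxidative folding and prolyl isomerase genes (21 measured) had a median of 0.20, 16 with higher means. The gene with the next smallest p after Ero1a was the ER protein gene Erp29 (0.50 ± 0.14, adjusted p = 0.202). Targeting and signal peptide cleavage genes (17 measured) had a median of 0.22, 16 with higher means and 0 called. Their smallest p were those of Sec63, which links BiP to the channel (0.41 ± 0.11, adjusted p = 0.185), and of the signal peptidase subunit gene Spcs3 (0.28 ± 0.10, adjusted p = 0.324).

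N-glycosylation and glycan trimming genes (18 measured) had a median of 0.20, 17 with higher means and 0 called. Mogs, the glucosidase that starts trimming, differed by 0.71 ± 0.21 (adjusted p = 0.220) and the oligosaccharyltransferase subunit gene Ddost by 0.35 ± 0.13 (adjusted p = 0.320). Other degradation genes (21 measured) had a median of 0.15, 19 with higher means and 0 called. Selenos, a selenoprotein of the retrotranslocation complex, differed by 0.41 ± 0.12 (adjusted p = 0.231) and the ubiquitin-conjugating enzyme gene Ube2j1 by 0.31 ± 0.11 (adjusted p = 0.319). Other sensors and their activators (9 measured) had a median of 0.10, 7 with higher means and 0 called. Mbtps2, the protease that completes ATF6 release, differed by 0.49 ± 0.13 (adjusted p = 0.176), and Eif2ak3, the third sensor PERK, by 0.24 ± 0.15 (adjusted p = 0.553). Counts called lower were 0 in all 5 lists (limma), with 2 genes lower at an unadjusted p under 0.05, Prdx4 and Fkbp7 among the isomerases.

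Several other measures differed between the arrays beside this shift, and some of them moved with the groups. Acinar markers had lower means in the arrays labelled knockout in 18 of 20 genes, and the groups overlapped in all 20. Acinar cells are themselves rich in ER. Controls 2 and 3, with the most acinar RNA, had member means of 10.70 and 10.72, against 10.75 in control 1. Measured against control 1 alone, 35 of 36 members were higher, by a median of 0.32, and in 33 every array labelled knockout lay above control 1 (27.9% of all genes). The exception was Os9, at -0.14. With the acinar mean as a covariate the median was 0.31 and 0 members were called.

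Alpha cell markers were lower in 4 of 4 measured genes and delta, PP and epsilon markers in 6 of 6, by medians of -0.46 and -0.62, with 0 and 2 called. Every array labelled knockout lay below every control in 4 of 4 and 5 of 6 of them, as in 1649 of all 18193 genes. Beta cell markers differed by a median of -0.12, lower in 6 of 9, with 1 call, Slc30a8, which fell by 0.82. At an unadjusted p under 0.05 (limma) 3 of the 9 were lower and 0 higher. Besides Slc30a8 these were Ucn3 (-0.95) and Slc2a2 (-0.62), both with overlap between groups. Ero1b, higher by 0.18, is counted both here and among the other pathway genes. Leukocyte markers were higher in 7 of 8, by a median of 0.40, with 1 called, and their mean lay between 6.77 and 6.85 in the arrays labelled knockout and between 6.22 and 6.36 in controls. Plasma and B cell markers, of interest because plasma cells are also rich in ER, were lower in 6 of 8, with a mean of 4.70 to 4.87 in the arrays labelled knockout and 4.96 to 5.13 in controls. Duct markers were lower in 5 of 6, by a median of -0.22, although their mean was 0.11 higher. The exception was Cftr, a chloride channel gene, which averaged 8.12 ± 0.12 in the arrays labelled knockout and 4.20 ± 0.42 in controls (difference 3.92, adjusted p = 0.000937, limma). Endothelial markers had higher means in 5 of 5, by a median of 0.14, with 0 called, and the groups overlapped in 4. Their list mean was 8.13 to 8.22 in the arrays labelled knockout, against 8.41, 7.66 and 7.89 in controls 1 to 3. Fibroblast and stellate markers had higher means in 3 of 6, with 0 called. Among them Dcn differed by 0.82 ± 0.17 with no overlap (adjusted p = 0.0972). The 3′ minus 5′ difference of the manufacturer's Actb control probe sets, a gauge of RNA integrity, was 0.06, 0.03 and 0.03 in the arrays labelled knockout, against -0.15, -0.03 and -0.14 in controls. For Gapdh it was 2.037, 1.999 and 1.920 in the arrays labelled knockout, against 1.815, 1.909 and 1.920 in controls. For the transferrin receptor it was -1.162, -1.155 and -1.159 in the arrays labelled knockout, against -1.396, -1.171 and -1.105 in controls, so the groups overlapped. The part of acinar cells, of these other cell types and of RNA integrity in the result was not tested.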

How the data were processed

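Per the submitters' processing notes the authors made the values with RMA (version not given), which corrects background, quantile-normalizes arrays and summarises probes. The deposited table holds log2 expression values of 45101 probe sets on 6 arrays. The 64 control probe sets were left out of the tests, leaving 45037. Of these, 34945 had 1 gene symbol in the platform annotation, 932 several and 9160 none. The brightest single-symbol probe set stood for each of 18193 genes, and probe sets with several symbols named no gene. The difference, knockout minus control, came from lmFit and eBayes of limma 3.58.1 (R 4.3.3, two-sided test), with Benjamini-Hochberg adjustment over all 45037 probe sets and a call at adjusted p under 0.05. Where the probe sets of a gene were averaged, adjustment ran over the 18193 genes, and with the filter over the probe sets kept. Errors are SD over 3 arrays or the moderated SE. Only 3 arrays per group limit the precision.

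The members, lists and tests were chosen with earlier results of these data known. Full values were given for the 4 members with the smallest p in each role, all 3 sensors and any member called. The 2 genes with the smallest p of each other pathway list were named, with values per array where called. Of 175 other list entries, 17 had no probe set. Lists were described by counts and medians, not tested. Alternatives were another choice of probe set, normalization, filter and variance model, array weights, a replicate block, single arrays left out and, added later, the acinar marker mean as a covariate and leaving out controls 2 and 3. Scanner files were not used here.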

Additional observations from a re-analysis of the deposited data

How the results depend on the processing

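As reported, 1 member was called, Edem3. It was also the 1 called after quantile normalization again, after median centring and with array weights (162, 175 and 270 of all genes called higher). The count was 3 with the mean of all probe sets of a gene (Edem1, Xbp1 and Atf6, with Edem3 at 0.18), where 289 genes were called higher. It was 5 among probe sets with a mean log2 value of at least 6 (251 genes called higher). An intensity trend and robust variance gave 13 (366 genes). The acinar covariate gave 0 (53 genes), and was chosen after seeing the data, as was leaving out controls 2 and 3. Leaving out single arrays gave 0 to 1 (69 to 227 genes). The replicate block gave 0 (102 genes). The numbers were not treated as pairs, since deviations of same-numbered arrays correlated at -0.05, 0.14 and 0.01. Over all genes, 155 were called higher in the main fit, and 53 to 366 under the alternatives other than leaving out controls 2 and 3. Members with a higher mean numbered 35 or 36 under every alternative. Os9 was below 0 after quantile normalization again (-0.01), without control 2 (-0.01), without control 3 (-0.003), with the covariate (-0.10) and against control 1 alone (-0.14), and Ssr4 at -0.18 with the mean of its probe sets. Role medians that moved included those of degradation (0.29) and sensors (0.50) with the mean of all probe sets. That of chaperones moved to 0.25 with the covariate and that of disulfide isomerases to 0.31 without controls 2 and 3. Among the 2 marker genes with the smallest p in each list, the endothelial Cdh5 reversed to -0.12 without controls 2 and 3. The endothelial Kdr, Esam and Plvap also averaged less in the arrays labelled knockout than in control 1. The mean of the endothelial list was 8.18 in the arrays labelled knockout, against 8.41 in control 1. The cause of these moves was not tested. The values come without detection calls, so what background adds to dim probe sets, such as Derl3 and the second Edem3 probe set, is unknown.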

Other observations

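Some further genes outside the 37 are described here (genes in this paragraph were chosen after their values were seen, apart from Bhlha15). Pdia2, a disulfide isomerase restricted largely to the exocrine pancreas, stood at 6.16, 4.48 and 5.13 in the arrays labelled knockout, against 5.02, 10.01 and 9.90 in controls 1 to 3 (difference -3.05 ± 1.31, adjusted p = 0.393, limma). Its high arrays were controls 2 and 3, those with the highest acinar marker means. Bhlha15, the transcription factor MIST1 of secretory cells, had another order than Pdia2. It read 8.62, 8.95 and 8.12 in the arrays labelled knockout, against 8.24, 7.83 and 7.68 in controls (0.65 ± 0.24, adjusted p = 0.334). The prolyl isomerase gene Fkbp11 had a similar order, at 7.603, 8.326 and 7.316 in the arrays labelled knockout, against 7.353, 6.815 and 6.391 in controls (0.90 ± 0.32, adjusted p = 0.322). In both, knockout 2 was the highest array and knockout 3 lay below control 1. Prdx4, the ER peroxiredoxin, ran the other way between groups, at 8.32, 8.41 and 8.06 in the arrays labelled knockout, against 8.49, 8.66 and 8.92 in controls (-0.43 ± 0.15, adjusted p = 0.322). Within the arrays labelled knockout, Bhlha15, Fkbp11 and Prdx4 were highest in knockout 2 and lowest in knockout 3, as were the member means.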
